A study of Mus musculus with 2 samples.

Results

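The genes described here are 10 mouse genes that code for temperature-responsive RNA-binding proteins and for kinases and splicing factors of the SR family, out of 55536 genes in the deposited gene tables. They are the cold-inducible RNA-binding proteins Cirbp and Rbm3, the kinases Clk1 and Clk4, the SR proteins Srsf2, Srsf3, Srsf5 and Srsf7, and the SR-like activators Tra2a and Tra2b. All 10 were found by symbol in both gene tables, and their 95 annotated transcripts were found in both kinds of transcript table. The members were selected on these libraries, with their ratio between the animals and the transcript classes of the series already known. Values of those measures are therefore a description and carry no test.

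Adrenal glands were taken from adult females of B6CASTF1/J, an F1 hybrid strain of C57BL/6J and Cast parentage, at 8 to 10 months of age, and their total RNA was sequenced. There were 2 libraries in 1 group, made from 300 ng of RNA each with ERCC spike-in RNA added. Replicate 2 is animal 3 and replicate 1 is animal 1. The labels name no treatment, temperature or genotype difference between them, and they give both animals the same donor code. With 1 library on each side, every difference below compares these libraries and has no replicate check.

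SR proteins bind exonic enhancers through RNA recognition motifs and recruit the splicing machinery through domains rich in arginine and serine. CLK kinases phosphorylate those domains in the nucleus and release SR proteins from nuclear speckles, and their activity is known to be higher at lower body temperature. Most genes of the family hold an exon or intron whose inclusion brings an early stop codon, so that part of the primary transcript is kept in the nucleus or degraded by nonsense-mediated decay. Cirbp and Rbm3 RNA are known to be more abundant in mildly cooled mammalian cells.

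Sequencing depth was 34319787 expected counts in replicate 2 and 40453707 in replicate 1, and the 10 genes took 0.0763% and 0.0560% of the counts assigned to genes. Adrenal cortex markers summed to 27184 TPM in replicate 2 and 26003 TPM in replicate 1, and medulla markers to 1941 and 2159 TPM, so the labelled tissue showed its defining RNAs. Adipocyte markers summed to 768 TPM in replicate 2 and 1504 TPM in replicate 1, none of the 10 was at 0, and 7 of them (Adipoq, Adrb3, Cfd, Cidea, Dio2, Fabp4 and Ucp1) were at least 2-fold lower in replicate 2. Fibroblast markers summed to 108 TPM in replicate 2 and 157 TPM in replicate 1, endothelial markers to 197 and 205 TPM, and macrophage markers to 53.0 and 52.3 TPM; Col3a1 and Cd163 were the only fibroblast and macrophage markers at least 2-fold lower in replicate 2. The part of fat or other cell types in the values of the 10 genes was not tested, and in bulk tissue fewer cells of a type and less RNA per cell cannot be told apart.

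In TPM, which is scaled per length and so can be compared between genes, the order of the mean levels was Srsf5, Srsf2, Clk1, Srsf7, Srsf3, Clk4, Cirbp, Tra2b, Rbm3 and Tra2a. Srsf5 averaged 115 ± 25.4 TPM and Srsf2 70.8 ± 10.9 TPM (SD, n = 2 each), and the 2 values of each lay above both values of the next gene in the order. From Clk1 at 44.2 ± 15.9 TPM down to Tra2a at 22.3 ± 1.17 TPM (SD, n = 2 each) every gene overlapped its neighbour in the order. The median of the 10 means was 32.5 TPM.

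**Figure D1:**
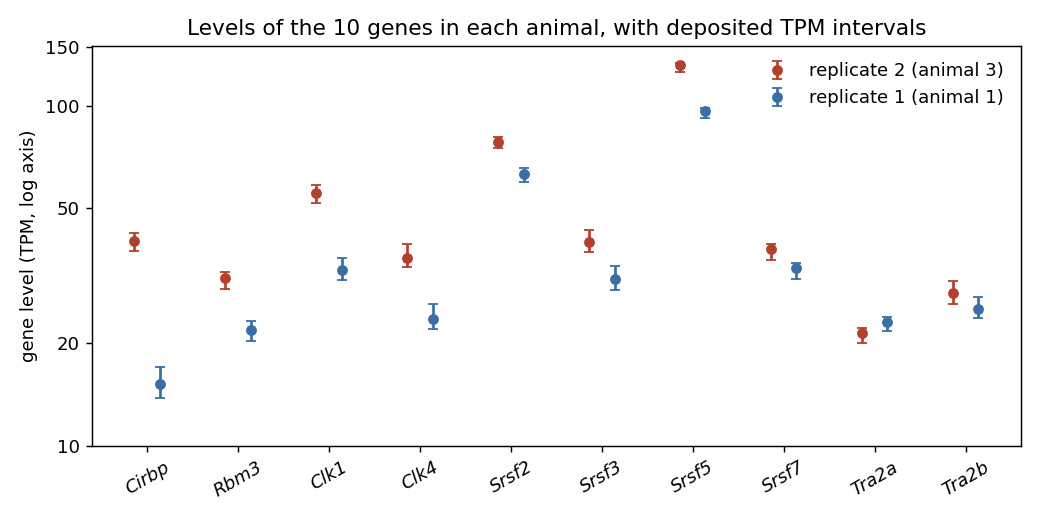
Gene level in TPM on a log axis for the 10 genes in replicate 2 (red, left) and replicate 1 (blue, right); bars are the deposited TPM intervals of each library, whose level is not given in the files. The intervals of 8 genes do not overlap, and Cirbp, with 40.2 TPM in replicate 2 and 15.2 TPM in replicate 1, is the farthest apart.

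Of the 10 genes, 8 had deposited TPM intervals that did not overlap between the animals, and all 8 were higher in replicate 2. Over the 12645 genes whose expected counts averaged at least 100, 27.4% had intervals that did not overlap and 18.1% did so with the higher value in replicate 2. After TMM scaling of the expected counts, 1 of the 10 genes (Cirbp) was at least 2-fold higher in replicate 2 and 0 were at least 2-fold lower. Over all genes tested 0.561% were at least 2-fold higher, 0.775% at least 2-fold lower and 1.34% past 2-fold in either direction. The median log2 ratio of the 10 genes was 0.37, and that of all genes tested was -0.030. The median absolute log2 ratio was 0.37 for the 10 genes and 0.15 for all genes tested, and the SD of the log2 ratio over 24 spike-in RNAs was 0.15. The members were chosen on this ratio, so their shift is a description of the choice.

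**Figure D2:**
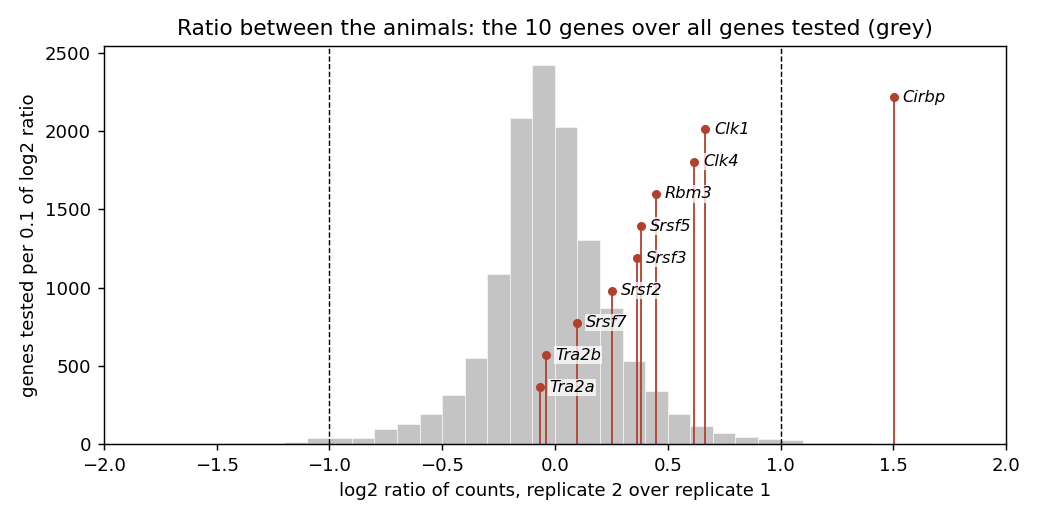
Histogram (grey) of the log2 ratio of TMM-scaled counts, replicate 2 over replicate 1, for the genes tested within -2 and 2 (18 genes lie outside), with the 10 genes marked in red at heights chosen only for legibility; dashed lines mark 2-fold. Cirbp lies beyond the 2-fold line at 1.50, the kinases and Rbm3 between 0.45 and 0.67, and Tra2a and Tra2b next to 0.

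Cirbp codes for a glycine-rich RNA-binding protein that stabilises messenger RNAs in the cold and under stress. It lies at chr10:80165985-80172786 on the plus strand of mm10. Its level was 40.2 TPM in replicate 2 (deposited interval 37.6 to 42.3) and 15.2 TPM in replicate 1 (13.8 to 17.0), from 1354 and 528 expected counts. The level in replicate 2 was 2.83-fold that in replicate 1, a log2 ratio of 1.50, and 99.7% of the genes tested had a smaller absolute ratio. The animals did not overlap.

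The coding transcript Cirbp-202 carried most of this difference. It had 26.0 TPM in replicate 2 and 6.94 TPM in replicate 1, while the transcript annotated for nonsense-mediated decay, Cirbp-201, had 3.64 and 1.90 TPM. The leading retained-intron transcript, Cirbp-204, which keeps the intron of 217 bases at chr10:80170765-80170981, had 4.91 TPM in replicate 2 and 1.55 TPM in replicate 1. Retained-intron transcripts together held 26.3% of Cirbp TPM in replicate 2 and 34.4% in replicate 1, so the library with more Cirbp had the smaller share of retained-intron forms.

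The DNA before the RefSeq start of Cirbp is shown because it is the best-known address of a cold response in this family: capitals mark the octamer TCCCCGCC, described as a mild cold response element of the Cirbp gene. The sequence is chr10:80167589-80167777 on the plus strand, from the RefSeq promoter table in GRCm38.p6, and ends where exon 1 of the coding transcript Cirbp-202 begins. It lies inside the annotated gene, since Cirbp-207 starts further upstream.
Cirbp before the RefSeq start: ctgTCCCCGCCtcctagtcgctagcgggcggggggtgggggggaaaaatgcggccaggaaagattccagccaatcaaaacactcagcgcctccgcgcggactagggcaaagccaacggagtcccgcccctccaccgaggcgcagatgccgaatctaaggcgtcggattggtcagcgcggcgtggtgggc
The octamer begins 247 bases before the RefSeq start. Searched on both strands, it is in 5.38% of 32851 promoter windows of the same length. Among the 8 members with a window (9 windows), it is in that of Cirbp and in that of Srsf7, where it begins 44 bases before the start. The heat shock element core GAANNTTC is in 7.86% of all windows and in that of Tra2b. TATAAA is in 13.6% of all windows and in those of Srsf2 and Srsf3. These are matches of letters and do not show binding.

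Rbm3 codes for a small cold-inducible RNA-binding protein known to support protein synthesis in cooled cells. It lies at chrX:8138975-8145880 on the minus strand. Its level was 31.25 TPM in replicate 2 (28.9 to 32.5) and 21.9 TPM in replicate 1 (20.3 to 23.2), and the intervals did not overlap. The log2 ratio of counts was 0.45, a 1.36-fold higher value in replicate 2, and 88.6% of the genes tested had a smaller absolute ratio. The pseudogene Rbm3-ps had 3.94 TPM in replicate 2 and 1.51 TPM in replicate 1, and reads shared between the copies make the Rbm3 value uncertain. The antisense gene Rbm3os had 5 and 1 expected counts.

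Rbm3 holds an exon known to be skipped more in the cold, which brings a premature stop when it is included. It is exon 4 of Rbm3-208, at chrX:8144175-8144445, and lies inside intron 3 of the coding transcript Rbm3-203. The bases from its start to the annotated stop codon (capitals), chrX:8144383-8144445 on the minus strand, are shown in the direction of transcription, from GENCODE M21.
Rbm3-208 exon 4: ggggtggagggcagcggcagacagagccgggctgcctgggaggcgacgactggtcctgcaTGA
Transcripts with this exon made up 8.58% in replicate 2 and 9.61% in replicate 1 of the TPM of those with the exon and of the coding transcripts whose intron spans it. In the second kind of transcript table, made from the reads and a transcript index, they made up 10.1% and 11.1%. The share was thus about 1 percentage point lower in replicate 2 in both tables, which draw on the same reads. The leading coding transcript depended on the table: Rbm3-203 had 9.88 TPM in replicate 2 and 8.00 TPM in replicate 1 by the alignment-based table, and Rbm3-206 had 8.34 and 5.66 TPM by the index-based one. Rbm3-208 itself had 1.88 TPM in replicate 2 (1.14 to 2.41) and 1.49 TPM in replicate 1 (0.954 to 2.05). These intervals overlapped. They bound the TPM of 1 transcript and not the share, whose estimation error was not computed, so a difference in share between the animals was not tested. The leading retained-intron transcript, Rbm3-209, keeps the whole of intron 3 with this exon inside it, and had 6.10 TPM in replicate 2 and 4.82 TPM in replicate 1.

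Clk1 and Clk4 code for dual-specificity kinases that phosphorylate SR proteins. Clk1 lies at chr1:58410189-58424066 on the minus strand and Clk4 at chr11:51261730-51281766 on the plus strand. Clk1 was at 55.4 TPM in replicate 2 (51.8 to 58.7) and 32.95 TPM in replicate 1 (30.7 to 35.8), a log2 ratio of 0.67. Clk4 was at 35.7 TPM in replicate 2 (33.7 to 39.2) and 23.6 TPM in replicate 1 (22.1 to 26.1), a log2 ratio of 0.62. Both kinases were higher in replicate 2 without overlap of the intervals and below 2-fold, at 1.59-fold and 1.53-fold, and 95.5% and 94.6% of the genes tested had a smaller absolute ratio.

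The kinases share a regulated exon 4 of 91 bases. Its length leaves a remainder of 1 base after division by 3, so skipping this exon alone shifts the reading frame. In the leading Clk1 transcript that skips it, the annotated coding part ends soon after the skipped exon. The leading Clk4 transcript that skips it is annotated as coding, and the effect of skipping on its product was not tested. The exon is at chr1:58420121-58420211 (minus strand) in Clk1 and at chr11:51273078-51273168 (plus strand) in Clk4. Both sequences, from GENCODE M21 transcripts and 5′ to 3′ in the direction of transcription, are shown because the exon is nearly the same in the paralogs. Capitals mark the 6 bases that differ, and the other 85 bases (93.4%) are identical.
Clk1 exon 4: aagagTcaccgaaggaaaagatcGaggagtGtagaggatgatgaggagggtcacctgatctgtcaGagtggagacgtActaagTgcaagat
Clk4 exon 4: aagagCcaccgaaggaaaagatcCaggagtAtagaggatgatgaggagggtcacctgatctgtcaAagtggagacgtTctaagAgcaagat

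The leading Clk1 transcript in both kinds of table was Clk1-210, which skips the exon and is annotated for nonsense-mediated decay. It had 21.4 TPM in replicate 2 (16.2 to 23.9) and 13.8 TPM in replicate 1 (11.0 to 14.9). The coding transcript Clk1-201, which holds the exon, had 9.69 TPM in replicate 2 (6.78 to 13.7) and 3.26 TPM in replicate 1 (1.84 to 4.98). Both transcripts were higher in replicate 2 without overlap, and the coding one by the larger factor.

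The share of transcripts that skip exon 4 was lower in replicate 2 for both kinases, out of the transcripts that skip it or hold it as a separate exon. For Clk1 it was 68.8% in replicate 2 and 80.9% in replicate 1 in the alignment-based table, and 67.2% and 75.4% in the index-based table. For Clk4 it was 36.6% in replicate 2 and 54.4% in replicate 1 in the alignment-based table, and 25.6% and 34.3% in the index-based table. Retained-intron transcripts that hold the exon inside a longer exon (Clk1-204, Clk1-212, Clk1-213 and Clk4-213) are left out of these shares. Counted with the transcripts that hold the exon, they brought the Clk1 share to 51.1% in replicate 2 and 58.0% in replicate 1 in the alignment-based table, and 46.9% and 54.1% in the index-based table. The Clk4 share was then 28.6% in replicate 2 and 42.4% in replicate 1, and 20.9% and 28.4% in the index-based table. Counted either way, both tables gave the lower share in replicate 2, and the level depended on the count. The tables differed in the level for Clk4, where the skipping transcript Clk4-203 is annotated as coding. Clk4-203 had 3.18 TPM in replicate 2 and 2.52 TPM in replicate 1, and Clk4-201, which holds the exon, had 7.66 and 3.35 TPM. The decay transcripts of Clk4 were low, with Clk4-204 at 0.81 and 1.47 TPM in the alignment-based table and Clk4-214 at 3.07 and 1.60 TPM in the index-based one.

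**Figure D3:**
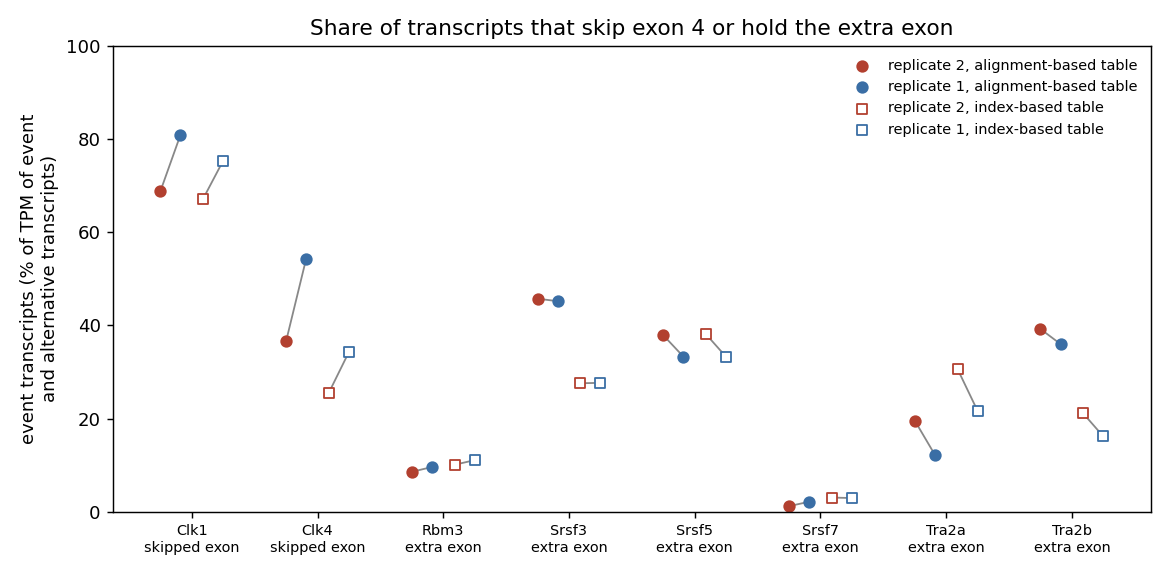
Percent of TPM held by transcripts that skip exon 4 (Clk1, Clk4) or hold the extra exon (the other 6 genes), out of these and the alternative transcripts, in replicate 2 (red, left of each pair) and replicate 1 (blue) by the alignment-based (filled circles) and index-based (open squares) tables. Skipping in Clk1 and Clk4 is lower in replicate 2 in both tables, and inclusion in Srsf5, Tra2a and Tra2b is higher in replicate 2 in both.

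Retained-intron transcripts held a further large part of both kinases. They took 34.9% of Clk1 TPM in replicate 2 and 38.2% in replicate 1, and 51.9% and 58.2% of Clk4 TPM. The leading one of Clk1, Clk1-204, keeps introns 3, 4 and 6 and had 6.48 TPM in replicate 2 and 4.39 TPM in replicate 1. That of Clk4, Clk4-207, had 9.19 and 8.85 TPM and keeps no whole intron of the coding transcript. Coding transcripts held only 17.5% of Clk1 TPM in replicate 2 and 9.89% in replicate 1, the lowest mean among the 10 genes.

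**Figure D4:**
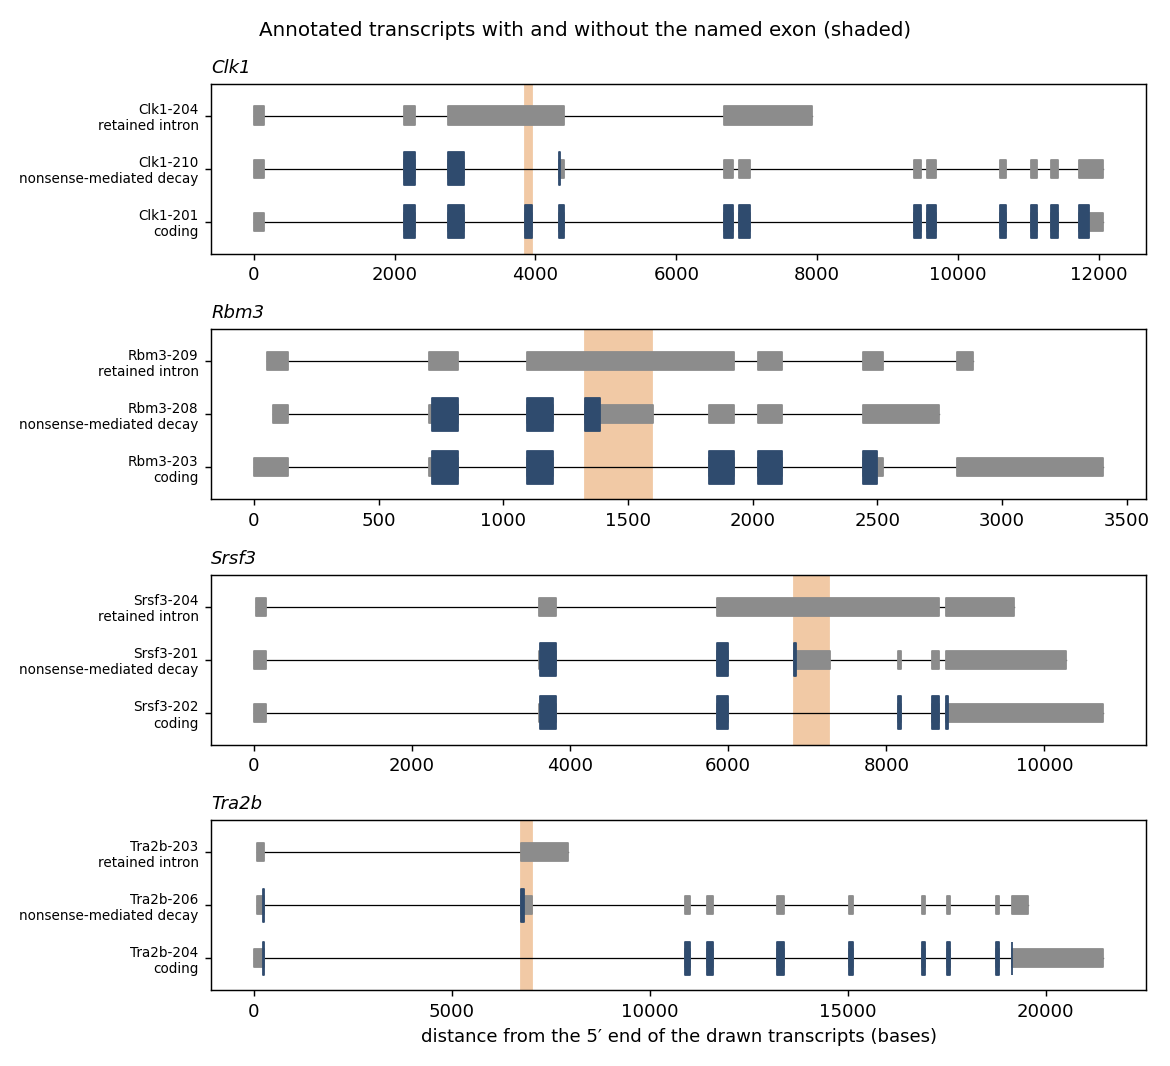
Annotated exons (grey) and coding parts (blue) of a retained-intron, a nonsense-mediated decay and a coding transcript of Clk1, Rbm3, Srsf3 and Tra2b, against distance in bases from the 5′ end of the drawn transcripts; the shaded band is exon 4 of Clk1 (91 bases) or the extra exon of the other genes. In the decay transcripts the coding part ends inside the extra exon, or, in Clk1-210, soon after the skipped one.

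Srsf2, whose protein is the speckle component also known as SC35, lies at chr11:116849901-116853094 on the minus strand. It was at 78.5 TPM in replicate 2 (75.5 to 81.5) and 63.1 TPM in replicate 1 (60.0 to 65.6), a log2 ratio of 0.25. The intervals did not overlap, and 70.9% of the genes tested had a smaller absolute ratio. Its retained-intron transcript Srsf2-203, which keeps intron 2 of 1059 bases, had 22.3 TPM in replicate 2 and 14.8 TPM in replicate 1. Mfsd11 (955 and 1028 expected counts) and Mettl23 (338 and 411) overlap Srsf2 on the opposite strand, and the labels do not say if strand was used in counting, which leaves the Srsf2 values uncertain. Of the Srsf2 transcripts for nonsense-mediated decay, Srsf2-204 was listed at 0 in replicate 2 and at 2.46 TPM in replicate 1 with overlapping intervals, and at 0 in both libraries by the index-based table.

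Srsf3 codes for the smallest SR protein, which also takes part in RNA export and in processing of histone RNA, and lies at chr17:29032628-29043373 on the plus strand. It was at 39.8 TPM in replicate 2 (37.2 to 43.2) and 31.0 TPM in replicate 1 (28.7 to 33.9), a log2 ratio of 0.36. Its extra exon, of 456 bases at chr17:29039454-29039909, reaches a stop codon after 31 bases. These first bases (chr17:29039454-29039487, plus strand, stop in capitals, GENCODE M21) are shown because this exon is the one by which the protein is known to limit its own synthesis.
Srsf3-201 exon 4: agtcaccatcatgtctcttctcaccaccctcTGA
Srsf3-201, which holds this exon, had 11.1 TPM in replicate 2 and 8.30 TPM in replicate 1, close to the coding Srsf3-202 at 13.1 and 10.1 TPM. Both pairs of intervals overlapped. The share of transcripts with the exon was 45.7% in replicate 2 and 45.2% in replicate 1 by the alignment-based table. By the index-based table it was 27.6% and 27.7%, with Srsf3-208 counted among the transcripts without the exon. Against the coding Srsf3-202 alone it was 45.7% and 45.2%, and 55.6% and 53.3% by the index-based table. Its level thus depended on the table and on the transcripts counted. A difference in share between the animals was not tested. The index-based table gave the short noncoding transcript Srsf3-208 a level of 19.1 TPM in replicate 2 and 13.7 TPM in replicate 1, and the alignment-based table listed it at 0.

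Srsf5, the highest of the 10 genes, codes for an SR protein that promotes inclusion of exons with purine-rich enhancers and lies at chr12:80945504-80950507 on the plus strand. It was at 133 TPM in replicate 2 (126 to 135) and 96.7 TPM in replicate 1 (92.3 to 98.9), a log2 ratio of 0.38. Its leading transcript by the alignment-based table was the noncoding Srsf5-206, which holds an extra exon of 376 bases, at 38.9 TPM in replicate 2 (33.4 to 41.7) and 25.8 TPM in replicate 1 (22.3 to 28.8). The share of transcripts with this exon was 37.9% in replicate 2 and 33.3% in replicate 1, and 38.1% and 33.2% by the index-based table. The retained-intron transcript Srsf5-212 keeps the intron around that exon, and had 24.1 TPM in replicate 2 (22.0 to 25.3) and 14.8 TPM in replicate 1 (13.3 to 15.8). Both noncoding forms were higher in replicate 2 without overlap, and so was Srsf5-205, the leading coding transcript by the alignment-based table. It had 25.6 TPM in replicate 2 (20.3 to 30.7) and 11.6 TPM in replicate 1 (8.13 to 14.3). By the index-based table Srsf5-205 had 1.42 TPM in replicate 2 and 2.60 TPM in replicate 1, the opposite direction. The single decay transcript, Srsf5-208, had 0.60 TPM in replicate 2 and was listed at 0 in replicate 1. The tables divided the reads of the 5 coding transcripts differently: Srsf5-201 had 18.0 TPM in replicate 2 and 17.8 TPM in replicate 1 by the alignment-based table and 40.4 and 31.6 TPM by the index-based one.

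Srsf7 codes for an SR protein with a zinc knuckle and lies at chr17:80200080-80207307 on the minus strand. It was at 38.0 TPM in replicate 2 (35.2 to 39.4) and 33.4 TPM in replicate 1 (31.1 to 34.6). Its log2 ratio of 0.10 was within the spread of the spike-ins although the intervals did not overlap. The extra exon of Srsf7-203, of 460 bases, was nearly absent: transcripts with it made up 1.21% in replicate 2 and 2.15% in replicate 1, and 3.06% and 2.95% by the index-based table, with no common direction. The retained-intron transcript Srsf7-206, which keeps the intron around the exon, had 9.26 TPM in replicate 2 and 6.31 TPM in replicate 1, against 16.5 and 15.7 TPM for the leading coding transcript Srsf7-208. The intervals overlapped for each. In the index-based table Srsf7-206 had 1.99 TPM in replicate 2 and 3.98 TPM in replicate 1, the opposite direction, and Srsf7-207, listed at 0 in the alignment-based table, had 6.05 and 1.62 TPM.

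Tra2a and Tra2b code for SR-like proteins that bind GAA-rich enhancers. Tra2a lies at chr6:49243924-49264033 and Tra2b at chr16:22244549-22266005, both on the minus strand. Tra2a was at 21.5 TPM in replicate 2 (20.01 to 22.2) and 23.2 TPM in replicate 1 (21.7 to 23.9), and Tra2b at 28.2 TPM in replicate 2 (26.2 to 30.6) and 25.3 TPM in replicate 1 (23.7 to 27.5). The log2 ratios were -0.066 and -0.040, and the intervals of both genes overlapped. The Tra2b ratio was 0.15 when TPM was used as deposited, so its sign depended on the scaling.

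Both genes hold an extra exon 2 with an early stop. The bases from the exon start to the stop (capitals) are shown, at chr6:49252965-49253108 for Tra2a and chr16:22259181-22259261 for Tra2b, both on the minus strand and from GENCODE M21, because they are rich in the triplet that the Tra2 proteins bind.
Tra2a-202 exon 2: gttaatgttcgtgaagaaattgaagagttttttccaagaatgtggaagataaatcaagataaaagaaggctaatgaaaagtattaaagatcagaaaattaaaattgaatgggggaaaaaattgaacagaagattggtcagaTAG
Tra2b-206 exon 2: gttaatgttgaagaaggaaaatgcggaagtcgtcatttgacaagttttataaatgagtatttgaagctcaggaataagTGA
Over the whole exon, GAA occurred 10.5 times per 100 bases in Tra2a and 10.1 times in Tra2b, against 1.54 and 2.43 times in the coding sequence of the same genes. In the extra exons of Rbm3, Srsf3, Srsf5 and Srsf7 it occurred between 0.658 and 1.86 times per 100 bases. The 6 extra exons were 271 to 460 bases long, where the median of 180243 annotated internal exons of coding transcripts is 123 bases and 5.86% reach 271.

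Transcripts with the extra exon had the higher share in replicate 2 for both Tra2 genes. For Tra2a the share was 19.6% in replicate 2 and 12.2% in replicate 1, and 30.7% and 21.6% by the index-based table. For Tra2b it was 39.2% in replicate 2 and 36.0% in replicate 1, and 21.1% and 16.2% by the index-based table. The Tra2b share was taken against the coding Tra2b-204 alone. With the coding Tra2b-201 also counted, it was 28.3% in replicate 2 and 26.3% in replicate 1. By the index-based table it was then 10.8% and 7.92%. Tra2a-202 had 3.30 TPM in replicate 2 (2.42 to 4.25) and 2.46 TPM in replicate 1 (1.69 to 3.27). Tra2b-206 had 6.05 TPM in replicate 2 (2.99 to 7.31) and 5.12 TPM in replicate 1 (2.80 to 6.59). The intervals overlapped for each, and the estimation error of the shares was not computed. The coding transcripts differed little or went the other way: Tra2a-201 had 10.6 TPM in replicate 2 (7.44 to 12.3) and 15.1 TPM in replicate 1 (12.1 to 16.8), and Tra2b-204 had 9.37 TPM in replicate 2 (8.49 to 9.95) and 10.3 TPM in replicate 1 (9.42 to 10.9). Their intervals overlapped. Tra2a-203, the leading retained-intron transcript, had 4.66 TPM in replicate 2 (4.199 to 4.96) and 3.07 TPM in replicate 1 (2.75 to 3.32), without overlap. That of Tra2b, Tra2b-203, had 3.21 and 2.14 TPM with intervals that overlapped. Neither keeps a whole intron of the leading coding transcript. Tra2b-203 holds the extra exon inside a longer exon and is left out of the Tra2b share.

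The classes were then compared over the whole gene. In the alignment-based table, retained-intron transcripts took a median of 24.1% of the TPM of the 10 genes, against 6.77% over 4216 genes at 10 TPM or more that have such a transcript, and all 10 members were above that median. The lowest was Srsf3 at 13.8% ± 2.23 and the highest Clk4 at 55.1% ± 4.48 (SD, n = 2 each). Transcripts for nonsense-mediated decay took a median of 8.595% in the 10 genes and 3.10% over 2008 genes, and 7 members were above that median, led by Clk1 at 40.3% ± 2.40 (SD, n = 2). Coding transcripts took a median of 59.0% in the 10 genes and 91.1% over 6317 genes, and 0 members were above it. The index-based medians of the 10 genes were 21.9% for retained introns, 9.46% for decay and 58.2% for coding transcripts. The members also have more annotated retained-intron transcripts, a median of 3 against 2 over all genes. For decay transcripts this median was 2 against 1, and for coding transcripts 2 against 3. The part of these numbers in the shares was not tested.

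**Figure D5:**
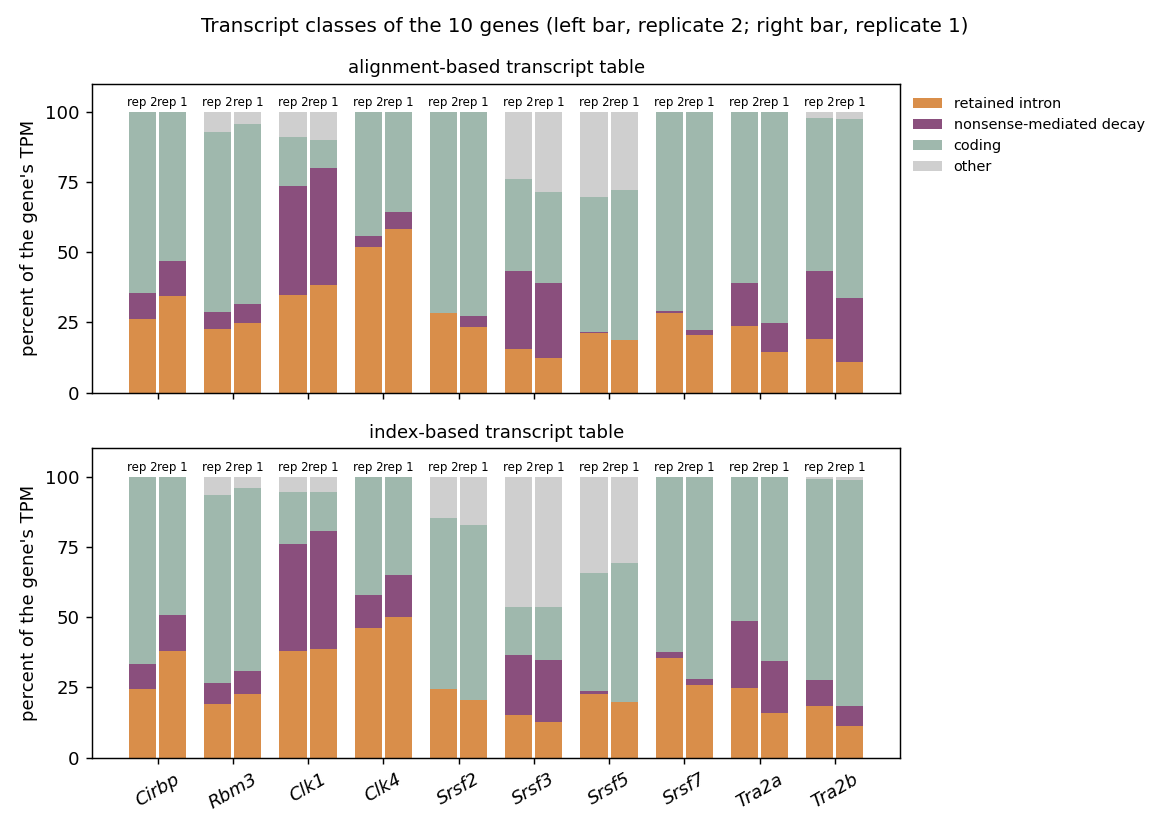
Percent of each gene's transcript TPM in retained-intron (orange), nonsense-mediated decay (purple), coding (green) and other (grey) transcripts for the alignment-based (top) and index-based (bottom) tables; left bar, replicate 2, and right bar, replicate 1. Retained-intron and decay transcripts together are lower in replicate 2 for Cirbp, Rbm3, Clk1 and Clk4 and higher for Srsf2, Srsf3, Srsf5, Srsf7, Tra2a and Tra2b in both tables.

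Within a gene, the log2 ratio of retained-intron counts minus that of coding counts gives the shift between classes free of the scaling of the library. It was above 0 in 6 of the 10 genes and below 0 in 4, with a median of 0.32, whereas over 5045 genes the median was 0.47 and 77.8% were above 0. The genes below 0 were Cirbp at -0.86, Rbm3 at -0.14, Clk1 at -0.97 and Clk4 at -0.40. Those above 0 were Srsf2 at 0.31, Srsf3 at 0.34, Srsf5 at 0.33, Srsf7 at 0.55, Tra2b at 0.85 and Tra2a at 1.01. The sign of all 10 was the same in the index-based table. Set against the median of all genes, Srsf7, Tra2a and Tra2b were above it, and Srsf2, Srsf3 and Srsf5 lay below it with the 4 genes under 0. The value of Rbm3 was smaller in size than the spike-in SD of 0.15. That SD is of single ratios and does not cover the division of reads between transcripts, so it is no measure for the other values. Only Tra2a reached a difference of 1, against 22.3% of all genes, and it was at 0.99 by the index-based table. All 8 nuclear-retained noncoding RNAs that passed the count minimum of 100 were higher in replicate 2. Their median log2 ratio was 0.56, against -0.030 over all genes tested. Their part in the retained-intron difference was not tested.

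For transcripts annotated for nonsense-mediated decay, 9 genes had enough counts. The difference from coding was below 0 in 6 and above 0 in 3. It was -0.91 in Cirbp, -0.16 in Rbm3, -0.94 in Clk1 and -0.97 in Clk4, and 0.83 in Tra2a, 0.35 in Tra2b and 0.032 in Srsf3. Srsf7 was at -0.84 from 20.4 and 42.1 expected counts, and at 0.028 in the index-based table. The remaining gene, Srsf2, was the only one past a difference of 1, with the class listed at 0 in replicate 2 as described above, against 32.8% of 1779 genes in all. The median over the 9 genes was -0.84, against 0.10 over all genes, and it was -0.062 over the 8 genes that the index-based table allowed, so this median depended on the table.

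Of 63 member transcripts with a mean count of 20 or more, 20 had alignment-based intervals that did not overlap between the animals. All 20 were higher in replicate 2, and they were 10 retained-intron, 5 coding, 2 decay and 3 other transcripts. Over 41176 transcripts, 16.7% did not overlap and 11.8% did so with the higher value in replicate 2. By gene, the kinds of table agreed within 2-fold for all 10 members in both animals, where 4.79% of genes in replicate 2 and 4.94% in replicate 1 were past 2-fold. By transcript they were less alike, since the leading transcript was the same for 5 of the 10 genes and 8 of the 95 transcripts were at 0 in one kind of table and at 1 TPM or more in the other.

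The rest of the pathway was described by lists. Over all genes tested, 1.34% were past 2-fold and the median log2 ratio was -0.030. At that share, 0 past 2-fold in a short list is no result about the list. Of 6 other SR proteins measured, 0 were past 2-fold and the median log2 ratio was -0.12. They ran between -0.48 for Srsf10, a splicing repressor activated by dephosphorylation on heat shock, and 0.42 for Srsf11, and the highest level was that of Srsf1 at 76.2 ± 4.21 TPM (SD, n = 2). Of 9 other SR protein kinases, 0 were past 2-fold, with a median of 0.093. The highest ratio was that of Clk2 at 0.46 and the lowest that of Dyrk1a at -0.11, and Clk3 had the highest level at 29.4 ± 4.84 TPM (SD, n = 2).

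Of 19 SR-related proteins, 0 were past 2-fold, 16 were above 0 and the median was 0.18. Ddx46, a helicase of early spliceosome assembly, was highest at 0.60 and Thrap3 lowest at -0.26, and the scaffold protein gene Srrm2 had the highest level at 251 ± 56.5 TPM (SD, n = 2). Of 33 hnRNP proteins, 0 were at least 2-fold lower, and the median was 0.025. Hnrnpc was lowest at -0.66, and Hnrnpk had the highest level at 283 ± 13.4 TPM (SD, n = 2). Of 16 nonsense-mediated decay factors, 0 were past 2-fold and the median was -0.10. They ran between -0.28 for Casc3 and 0.15 for Upf3b, and the exon junction protein gene Eif4a3 had the highest level at 47.8 ± 2.84 TPM (SD, n = 2).

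Genes of the heat-inducible chaperone list were lower in replicate 2. The list also holds the genes of the heat shock factors Hsf1 and Hsf2, which are not chaperones. All 15 had a log2 ratio below 0, with a median of -0.70 against -0.030 over all genes tested. Of the 15, 4 were at least 2-fold lower in replicate 2, where 0.775% of all genes tested were. Hspa1b had 13.1 TPM in replicate 2 and 39.6 TPM in replicate 1, Hspb1 38.7 and 96.6 TPM, Hsph1 51.7 and 108 TPM, and Hspa1a 5.94 and 12.3 TPM. Hspa8, the most abundant of the list, had 600 TPM in replicate 2 and 995 TPM in replicate 1, and Hsf2, closest to 0, had a ratio of -0.11. This direction was not particular to chaperones. All 10 adipocyte markers (median -1.06), 7 medulla markers (-0.30), 6 fibroblast markers (-0.55) and 6 endothelial markers (-0.13) were also below 0. Of the macrophage markers 5 were below 0 and 1 above, and of the cortex markers 4 and 4. Replicate 2 also had the higher level, without overlap of the intervals, for 8 of the 10 members. The part of any of these differences in another was not tested. The nuclear-retained Malat1, a speckle RNA, had 6213 TPM in replicate 2 and 3826 TPM in replicate 1, and the paraspeckle RNA Neat1 had 210 and 105 TPM, a log2 ratio of 1.34. The lowest of that list was Xist, at 0.26.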

How the data were processed

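For every library the authors deposited gene and transcript tables from a transcriptome alignment (alignment-based), and a second transcript table from reads and an index (index-based), on mm10 with GENCODE M21, per the series notes, which name no program. Expected counts were deposited without normalization. TPM and FPKM were scaled by the authors within each library, tRNA and spike-in rows included. The share of a gene held by each transcript is a deposited percent column. The deposited bounds of TPM are a signal of estimation error within 1 library.

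Expected counts were rounded for TMM (edgeR 4.0.16, R 4.3.3) and DESeq2 1.42.0 size factors. Ratios are replicate 2 over replicate 1 of scaled counts plus 0.5, at a mean count of 100 or more, and 2-fold was the threshold. No p-values were computed. Classes are the deposited biotypes; class ratios needed a mean count of 20 in each class. Exon events group transcripts that hold an exon and coding or other transcripts whose intron spans it, by GENCODE M21; the events were chosen, and the grouping was revised, after transcript values had been seen. Other work used Python 3.11.15 with pandas 2.3.3. The ratio steps were tested on simulated data.

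The members and all lists were chosen with earlier results of these data known. All members are named; of each list, the gene with the highest level, the highest and lowest ratio and those past 2-fold, except 1 that is not reported here. The replicates carry separate animal numbers and biosamples. The planned protein features were not made. How reads from Cast alleles were counted is not stated.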

Additional observations from a re-analysis of the deposited data

How the results depend on the processing

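The log2 ratio between the animals kept its sign for 9 of the 10 genes under the 6 alternatives that can move it: DESeq2 size factors, TPM as deposited, TPM rescaled over nuclear protein-coding genes, spike-in scaling, a pseudocount of 5 and the index-based table. A count minimum of 10, or none, changes only which genes are tested. The exception was Tra2b, which ran between -0.063 and 0.15. Cirbp ran between 1.37 and 1.50 and was the single gene past 2-fold in each. TPM as deposited moved the median of all genes to 0.070. The number of genes past 2-fold over the whole table was 109 with TPM as deposited, 1124 at a mean count of 10 and 6706 with no minimum, and that of listed genes was 9 with TPM as deposited, against 15.

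The median level of the 10 genes was 91.2 when TPM was rescaled over protein-coding genes. Their median retained-intron share was 21.9% in the index-based table and 27.3% by counts, and that of all genes 3.65% by counts. For decay transcripts the medians of the 10 genes were 9.46% in the index-based table and 6.84% by counts, and those of all genes 5.17%, 1.74% and, at 1 TPM, 3.89%. Leaving out each library gave 22.0% to 24.9% for retained introns and 7.54% to 8.71% for decay in the 10 genes, and 2.68% to 3.17% for decay in all genes. Members past a class difference of 1 numbered 0 by the index-based table for retained introns, and 0 by that table and at 100 counts a class for decay, where the medians were -0.062 and 0.19. The tables were past 2-fold for 1425 genes at 1 TPM and 392 at 10 TPM.

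Added after the data were seen, all coding transcripts as the alternative to each exon gave 26.7% in replicate 2 and 40.5% in replicate 1 for Clk4, and 28.3% and 26.3% for Tra2b, and, by the index-based table, 55.6% and 53.3% for Srsf3. Transcripts that hold exon 4 inside a longer exon, counted as holding it, brought the mean Clk1 share to 54.6%. The cause of these differences was not tested. No paired analysis was possible because there is 1 group. No ratio can be had with a library left out.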
